A study of Homo sapiens with 6 samples.

Results

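The fatty acid synthesis and desaturation enzymes described here are 10 genes, ACLY, ACSS2, ACACA, FASN, ELOVL6, ELOVL5, SCD, FADS1, FADS2 and ACSL3, taken by gene name from a table of read counts that holds 32078 named genes. Each name matched exactly 1 row, and all 10 passed the filter on low counts, with 160 counts or more in every library. The counts come from poly(A) RNA of 6 libraries labelled PANC-1, an established human pancreatic carcinoma cell line. The 3 control-labelled libraries carry no treatment in their labels. The 3 EV-labelled libraries are labelled as treated with extracellular vesicles (EVs) shed by cancer-associated fibroblasts, the fibroblasts of tumour stroma. Vesicle dose and duration are not stated there, and the protocol text speaks of vesicle treatment for every library, so the groups rest on titles and treatment labels.

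Cells build saturated fatty acids from acetyl-CoA in the cytosol. ATP citrate lyase and acetyl-CoA synthetase supply the acetyl-CoA, acetyl-CoA carboxylase turns it into malonyl-CoA, and fatty acid synthase joins these units into palmitate, which elongases lengthen and desaturases provide with double bonds. Most of these genes are known targets of the SREBP transcription factors, which are released from the endoplasmic reticulum when sterols are low. Many carcinomas, pancreatic carcinoma among them, are known for high synthesis of fatty acids.

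In the EV-labelled libraries 5 of the 10 genes were higher, namely ELOVL6, ACLY, ELOVL5, FASN and SCD, and 0 were called lower by edgeR's quasi-likelihood test at a Benjamini-Hochberg adjusted p under 0.05. At an unadjusted p under 0.05 there were 7 higher genes and 1 lower gene, ACACA. Of all 14670 tested genes 3513 were higher and 3637 lower at that unadjusted threshold. Among the 10 genes DESeq2 called 6 higher and 0 lower, and limma-voom 5 and 0. Of all 14670 tested genes 40.9% were called, 20.2% as higher and 20.7% as lower. The rises were modest, from 1.14-fold for SCD to 1.54-fold for ELOVL6. The median log2 fold change of the 10 genes was 0.17, against -0.01 over all tested genes. With upper-quartile scaling the calls were 4 higher and 1 lower.

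Totals ran from 21647493 to 27498709 counts of named genes per library, and 3 counts, the most that a count of 0 allows, came to 0.11 to 0.137 CPM (each count relative to its scaled library total). The epithelial keratin genes KRT8 and KRT18 were abundant, at 3060 and 1269 CPM in the control-labelled mean, and were not called (edgeR adjusted p = 0.0687 and 0.132). KRT19 fell from 390 to 279 CPM (-0.48 on the log2 scale, adjusted p = 5.78e-06). KRT7 had 1 to 10 counts per library, and the epithelial genes EPCAM and CDH1 had 0 in all 6. Of 10 fibroblast markers 9 were in the table. Among these, 5 had at most 3 counts in any library and DCN, LUM and THY1 had 0 counts in all 6. Their summed level was 120 to 146 CPM in the control-labelled and 199 to 219 CPM in the EV-labelled libraries. COL1A2, a chain of type I collagen, rose from 114 to 186 CPM (0.71, edgeR adjusted p = 3.72e-07), COL3A1 was at 17.7 against 19.0 CPM (adjusted p = 0.398), and ACTA2 fell from 5.23 to 2.79 CPM (-0.91, adjusted p = 0.000233). The part of these marker differences in the results below was not tested. The summed adipocyte markers stayed at or below 0.293 CPM. In bulk RNA, a change in which cells are present and a change of RNA per cell cannot be told apart.

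Promoter sequences were matched for 9 of the 10 genes, in 14 windows that run from 250 bases before to 50 bases after a RefSeq transcription start (build GRCh38.p14). FASN, also called higher, had no window, so its promoter was not searched. The windows below belong to 4 genes that were called higher, and are shown because 3 of them hold the CCAAT box, the letters that the factor NF-Y binds beside SREBP at many lipid genes, while the gene with the largest rise holds none. Capitals mark CCAAT or its reverse complement ATTGG and, in ELOVL5, the E box CACGTG. They lie at chr17:41918973-41919272 (minus strand, ACLY), chr10:100346983-100347282 (plus strand, SCD), chr6:53348901-53349200 (minus strand, ELOVL5) and chr4:110198566-110198865 (minus strand, ELOVL6), each written 5′ to 3′ along the gene.
ACLY: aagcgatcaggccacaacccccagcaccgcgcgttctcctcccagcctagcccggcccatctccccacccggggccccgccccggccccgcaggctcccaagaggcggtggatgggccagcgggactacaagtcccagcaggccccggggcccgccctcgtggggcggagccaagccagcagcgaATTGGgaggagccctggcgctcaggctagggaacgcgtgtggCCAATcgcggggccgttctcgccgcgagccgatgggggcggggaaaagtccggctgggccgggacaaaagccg
SCD: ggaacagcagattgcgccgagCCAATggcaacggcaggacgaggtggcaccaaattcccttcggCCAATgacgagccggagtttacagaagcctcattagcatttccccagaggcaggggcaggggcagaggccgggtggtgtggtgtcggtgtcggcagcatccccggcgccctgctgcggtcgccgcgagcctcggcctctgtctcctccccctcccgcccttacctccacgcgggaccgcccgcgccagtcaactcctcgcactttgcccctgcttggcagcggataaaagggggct
ELOVL5: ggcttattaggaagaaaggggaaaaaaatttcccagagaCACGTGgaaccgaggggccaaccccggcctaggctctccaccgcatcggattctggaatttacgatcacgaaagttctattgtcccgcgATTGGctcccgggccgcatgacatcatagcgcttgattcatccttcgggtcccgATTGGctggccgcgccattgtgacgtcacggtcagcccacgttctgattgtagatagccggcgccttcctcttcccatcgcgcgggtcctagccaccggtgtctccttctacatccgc
ELOVL6: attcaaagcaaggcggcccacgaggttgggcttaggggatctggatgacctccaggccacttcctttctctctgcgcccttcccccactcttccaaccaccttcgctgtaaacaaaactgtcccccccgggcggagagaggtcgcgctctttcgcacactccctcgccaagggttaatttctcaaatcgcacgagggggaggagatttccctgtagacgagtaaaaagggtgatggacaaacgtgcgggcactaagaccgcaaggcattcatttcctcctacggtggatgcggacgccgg

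ACLY, SCD and ELOVL5 each had 2 CCAAT boxes in the window shown. A CCAAT box was in 9 of the 14 windows and in 34.6% of all 35116 windows of the RefSeq table, searched on both strands. The 2 windows of ACLY overlap and hold the same 2 boxes, and the 2 of FADS2 overlap too. The 14 windows are therefore not all separate promoters. The E box was in 1 of the 14, that of ELOVL5, and in 7.26% of all windows. The sterol regulatory element was searched as TCACNCCAC on both strands, and it was in 0 of the 14 and in 1.13% of all. The letters describe these windows and do not show that a factor binds there, nor does their absence show that it does not. ACACA and FADS2, which were not called, had a CCAAT box in 2 of 3 and 1 of 2 windows, and FADS1, also not called, had none in its single window. ACSL3 and ACSS2, not called either, held the box at -75 and -123 from a start, ACSS2 in 1 of its 2 windows. The presence of the box therefore did not separate called from uncalled genes.

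Acetyl-CoA is supplied by ACLY, which cleaves citrate exported from mitochondria, and by ACSS2, which activates acetate. ACLY was at 628, 562 and 603 CPM in controls and at 743, 740 and 776 CPM in EV-labelled libraries. Every EV-labelled library lay above every control-labelled one, and the means were 598 ± 33.5 and 753 ± 20.2 CPM (SD, n = 3 each). The log2 fold change was 0.33 ± 0.06 (SE; edgeR adjusted p = 0.000155), the lowest adjusted p among the 10 genes. ACSS2 was at 60.4, 56.0 and 57.8 CPM against 68.9, 63.2 and 62.1 CPM. The groups did not overlap here either, but the smaller difference of 0.16 ± 0.06 did not pass (adjusted p = 0.0576). ACSS2 did pass when libraries were scaled by median ratios (adjusted p = 0.041) or by their totals (adjusted p = 0.0411), and when EV replicate 3 was left out (adjusted p = 0.049).

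Acetyl-CoA carboxylase 1, encoded by ACACA, makes malonyl-CoA in the step held to set the rate of the pathway, and FASN encodes the multifunctional synthase that follows it. ACACA measured 306, 246 and 287 CPM in controls and 245, 238 and 264 CPM in EV-labelled libraries. No other of the 10 genes had a lower EV-labelled mean (ACACA log2 fold change -0.17 ± 0.07, edgeR adjusted p = 0.0684), and its groups overlapped, with control replicate 2 inside the EV-labelled range. Without that library its log2 fold change was -0.25 and it was called lower (adjusted p = 0.00518), and it was also called lower with upper-quartile scaling (-0.19, adjusted p = 0.0389).

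FASN went the other way, at 1028, 829 and 999.7 CPM against 1173, 1024 and 1198 CPM. The lowest EV-labelled library, replicate 2, lay just under the highest control, replicate 1, so the groups overlapped. The rise of 0.25 ± 0.08 passed (edgeR adjusted p = 0.0128). It was lost when control replicate 2 was left out (0.16, adjusted p = 0.0893), and likewise for EV replicate 3 (0.21, adjusted p = 0.0548).

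**Figure D1:**
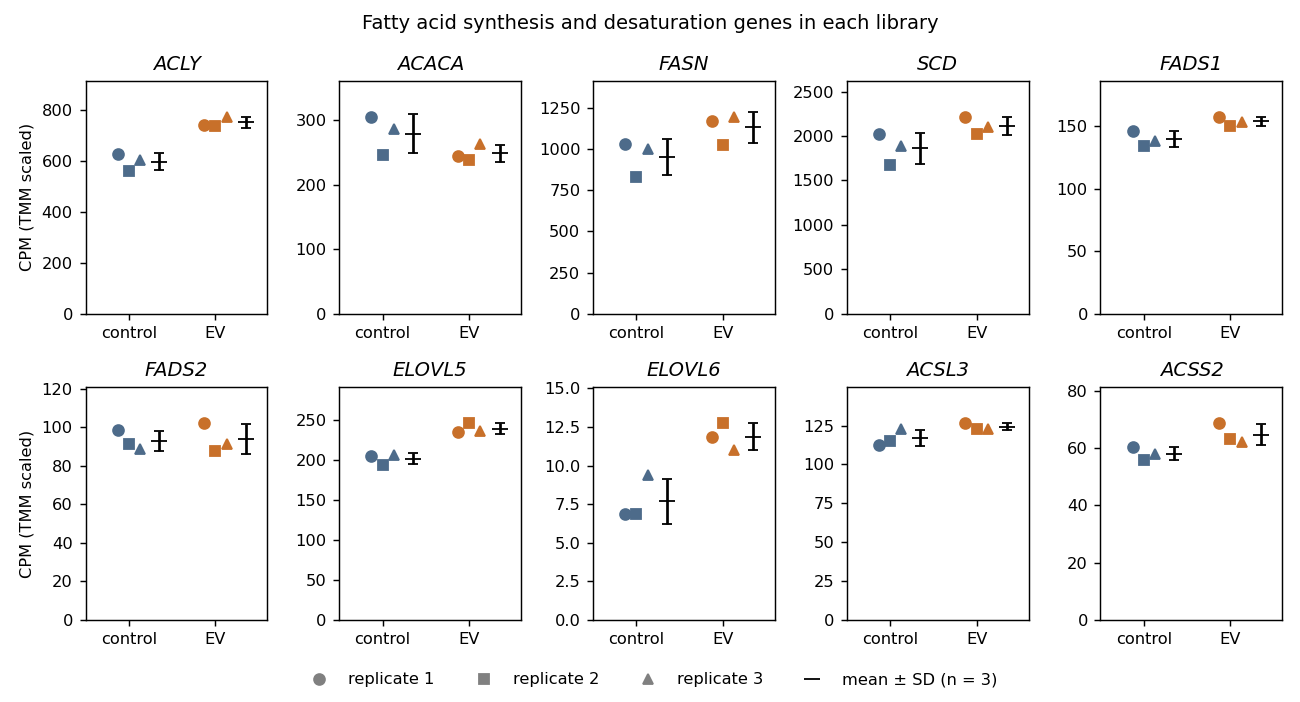
CPM (linear axes from 0) of the 10 genes in the 3 control-labelled and 3 EV-labelled libraries, with symbols for the replicate numbers and the mean ± SD beside the points. ACLY, ELOVL5 and ELOVL6 show a gap between the groups, ACACA, FASN and FADS2 overlap, and control replicate 2 is the lowest control for 8 of the 10 genes.

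Control replicate 2 was the lowest of the 3 controls for 8 of the 10 genes, and for 34.1% of all tested genes. The calls of FASN and SCD rested on this library. Without it 3 of the 10 genes were called higher and 1 lower, ACACA. The 10 genes together took 0.389% to 0.456% of the counts in the control-labelled libraries, the lowest in control replicate 2, and 0.475% to 0.507% in the EV-labelled ones. Without SCD, the other 9 genes took 0.222% to 0.256% against 0.271% to 0.293%.

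Elongases add carbon units to the finished chain. ELOVL6, which lengthens palmitate to stearate, was at 6.85, 6.83 and 9.38 CPM in controls and at 11.9, 12.8 and 11.0 CPM in EV-labelled libraries. It had the largest rise of the 10 genes, from 7.68 ± 1.46 to 11.9 ± 0.889 CPM (SD, n = 3 each; log2 fold change 0.62 ± 0.13, edgeR adjusted p = 0.000607). Its counts, 160 to 256 and 274 to 321 per library, did not overlap.

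ELOVL5, which lengthens polyunsaturated chains, was at 204.5, 194 and 207 CPM against 235, 247 and 237 CPM. Its libraries lay close together within each group, and it rose by 0.25 ± 0.06 on the log2 scale (edgeR adjusted p = 0.0016). ACLY, ELOVL5 and ELOVL6 were called higher in all 14 other settings.

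Desaturases place double bonds. SCD, the stearoyl-CoA desaturase that makes oleate, was the most abundant of the 10 genes, at 2021, 1676 and 1891 CPM against 2219, 2024 and 2098 CPM. The lowest EV-labelled library exceeded the highest control by only a few CPM, and the rise of 0.18 ± 0.07 was called (edgeR adjusted p = 0.0332). Leaving out control replicate 2 ended the call (0.11, adjusted p = 0.204), as did leaving out EV replicate 1 (0.15, adjusted p = 0.115) and upper-quartile scaling (0.16, adjusted p = 0.0527). The processed pseudogene SCDP1 had 86 to 168 counts per library, against 44204 counts or more for SCD.

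FADS1 and FADS2 encode the desaturases of polyunsaturated fatty acids and lie side by side on chromosome 11, in opposite directions. FADS1 was at 146, 134 and 138 CPM against 158, 150 and 154 CPM, without overlap. Its difference of 0.14 ± 0.06 did not pass (edgeR adjusted p = 0.057), and it did pass under median-ratio scaling (adjusted p = 0.0392), scaling by totals (adjusted p = 0.0369), DESeq2 (adjusted p = 0.0298) and removal of control replicate 1 (adjusted p = 0.0353). FADS2 was at 98.5, 91.2 and 88.7 CPM against 102, 87.6 and 91.6 CPM, with groups that overlapped throughout (0.02 ± 0.07, adjusted p = 0.858).

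The paralogue FADS3 in the same cluster was equally flat, at 41.1 ± 5.74 against 41.1 ± 3.72 CPM (log2 fold change 0.00 ± 0.09, edgeR adjusted p = 0.999). The adjoining genes FEN1, a flap endonuclease of DNA replication, and TMEM258, a subunit of the oligosaccharyltransferase complex, were at 1.09 ± 0.08 (adjusted p = 5.67e-09) and 0.49 ± 0.09 (adjusted p = 0.000323). These neighbours were chosen after their values were seen. In GENCODE 29 the exons of FADS2 share 490 bases with those of FADS1 on the opposite strand and 49 bases with those of FEN1 on the same strand. The sources used here do not say whether counting used the strand, so reads in the 490 bases could be counted for either gene. Strand cannot separate the reads in the 49 bases shared with FEN1.

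ACSL3 encodes a long-chain acyl-CoA synthetase of the endoplasmic reticulum and lipid droplets, which activates the finished fatty acid. It was at 113, 115 and 123 CPM against 127, 123 and 123 CPM. The groups touched without overlapping, and the difference of 0.09 ± 0.06 did not pass (edgeR adjusted p = 0.237). In all, 7 of the 10 genes had every EV-labelled library above every control-labelled one and 0 the reverse, while over all tested genes 25.1% did so in the higher and 25.5% in the lower direction.

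**Figure D2:**
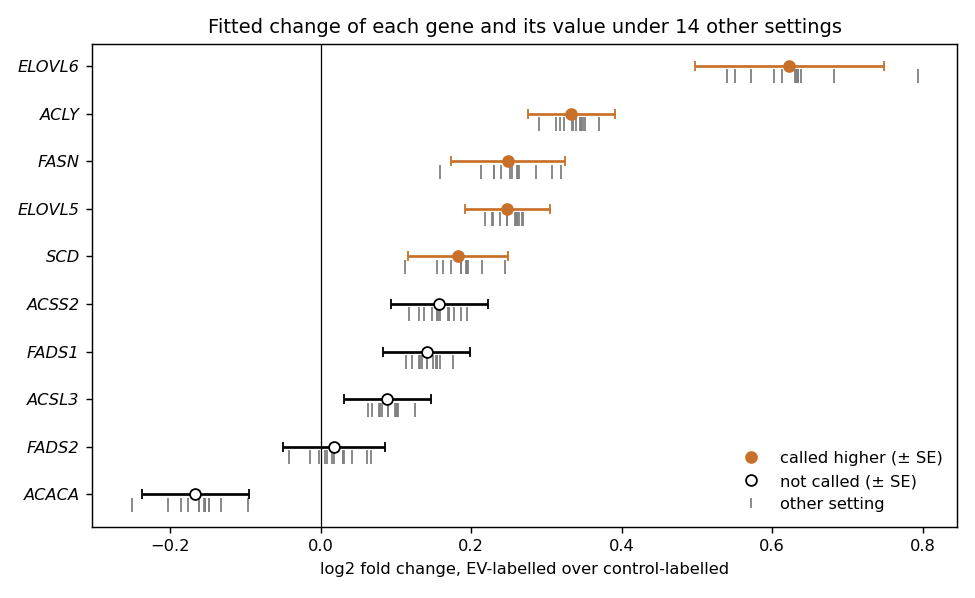
Fitted log2 fold change (EV-labelled over control-labelled) of each gene with its SE, ordered by size, with grey ticks for the values under 14 other scalings, filters, tests and left-out libraries. The values of ELOVL6, ACLY, FASN, ELOVL5 and SCD stay above 0 in every setting, those of ACACA stay below 0, and those of FADS2 lie on both sides.

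In the authors' deposited table, whose fold changes run control-labelled over EV-labelled, the same 5 genes have a q under 0.05. There ELOVL6 has a log2 fold change of -0.64 and a q of 2.49e-05, and ACACA has 0.15 and a q of 0.19, both values from the authors' deposited table. FADS1 has a q of 0.0502 in the authors' deposited table. That table rests on the same libraries and is no independent support.

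Levels were compared between genes only per kilobase of exon in GENCODE 29. SCD led in the control-labelled libraries, at 347 ± 32.5 CPM per kilobase. ACLY, at 115 ± 6.42, and FASN, at 102 ± 11.5 CPM per kilobase, came next and overlapped (FASN reached 110, and ACLY started at 108). ELOVL5 followed at 52.9 ± 1.86 CPM per kilobase, above the whole range of ACACA at 21.5 ± 2.35. The next 4 had ranges that did not overlap, namely ACSL3, at 16.1 ± 0.734, FADS1, at 13.6 ± 0.600, ACSS2, at 10.8 ± 0.417, and FADS2, at 8.42 ± 0.458 CPM per kilobase. ELOVL6 was last at 1.05 ± 0.201 CPM per kilobase. With the longest transcript as the length, FADS1 moved up to 30.8 CPM per kilobase, above ACACA at 28.1 with overlapping ranges, so the order in the middle depends on the gene model. The 4 most abundant genes and the last 3 kept their places by mean. With that length, however, the ranges of ACSS2 (18.3 to 19.7 CPM per kilobase) and FADS2 (17.5 to 19.4) overlapped.

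Counts of 2 genes of the same library can be compared without any scaling. These pairs were chosen after the values were seen and carry no test, since 3 libraries against 3 cannot give an exact permutation p below 0.1. For every 100 counts of ACLY there were 48.7, 43.8 and 47.5 counts of ACACA in controls and 33, 32.1 and 34 in EV-labelled libraries, a gap that included control replicate 2. ACACA per 100 counts of FASN went from 29.4 ± 0.61 to 22.1 ± 1.15, again without overlap. FASN per 100 counts of ACLY, at 159 ± 9.97 and 150 ± 10.4, and SCD per 100 counts of FASN, at 196 ± 6.56 and 187 ± 11.4, overlapped between the groups. FADS1 per 100 counts of FADS2 was 148, 147 and 156 against 154, 172 and 168, with 1 EV-labelled library inside the control range. The carboxylase transcript was thus lower relative to the enzymes before and after it, while ACLY, FASN and SCD kept similar proportions to each other.

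**Figure D3:**
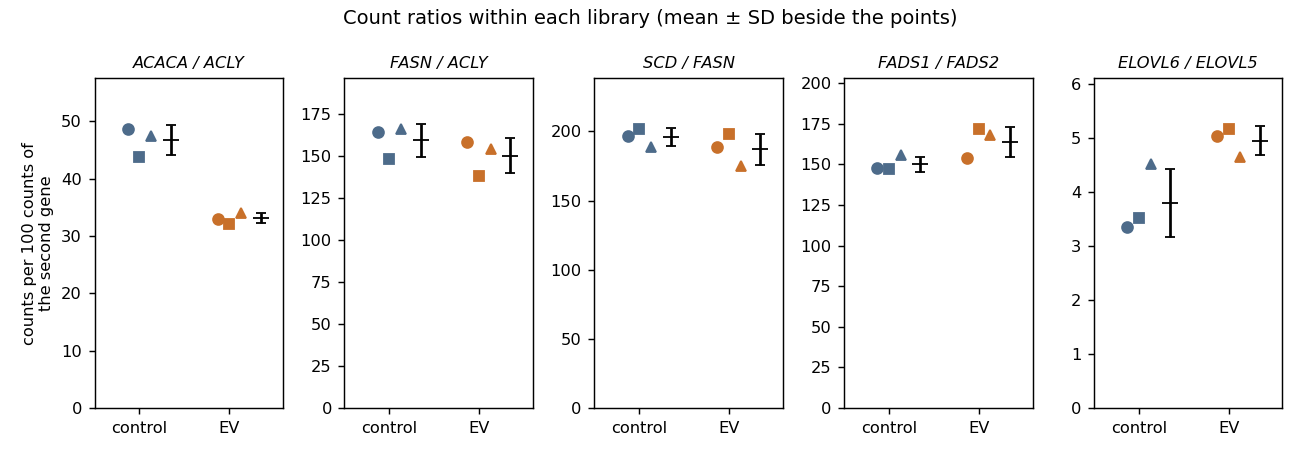
Counts of the first gene per 100 counts of the second within each library (linear axes from 0), with circles, squares and triangles for replicates 1, 2 and 3 and the mean ± SD beside them. ACACA against ACLY falls from 43.8 or more to 34 or less, whereas FASN against ACLY and SCD against FASN overlap.

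Related enzymes outside the 10 genes were read from a list of 31, of which 25 could be tested. Of these 12 were higher and 2 lower, and their log2 fold changes had a median of 0.17. The called share was 56%, against 40.9% of all tested genes (20.2% higher and 20.7% lower). The 2 lower calls became 0 when EV replicate 2 or EV replicate 3 was left out, and 1 for control replicate 1 or 2. SCD5, the second human stearoyl-CoA desaturase, was at 9.55, 7.71 and 8.13 CPM against 14.4, 15.4 and 12.6 CPM, a rise of 0.74 ± 0.11 (edgeR adjusted p = 3.64e-05). HACD1 and HACD2, dehydratases of the elongation cycle, rose by 0.44 ± 0.07 (adjusted p = 3.07e-05) and 0.41 ± 0.07 (adjusted p = 5.99e-05). The long-chain acyl-CoA synthetase gene ACSL4 was at 0.20 ± 0.08 (adjusted p = 0.038), a call lost without any of 4 single libraries (control replicates 1 and 2, EV replicates 2 and 3) and under upper-quartile scaling (adjusted p = 0.0644 to 0.149). ACACB, the mitochondrial acetyl-CoA carboxylase, was at 14.5 ± 0.106 against 14.4 ± 0.506 CPM (adjusted p = 0.967), so neither carboxylase gene rose. The lower genes were MECR, of mitochondrial fatty acid synthesis (-0.29 ± 0.09, adjusted p = 0.011), and the acyl-CoA synthetase gene ACSF2 (-0.28 ± 0.10, adjusted p = 0.025). MECR was not called without control replicate 2, EV replicate 2 or EV replicate 3 (adjusted p = 0.0513 to 0.0608), and ACSF2 not without control replicate 1, EV replicate 2 or EV replicate 3, nor with DESeq2 (adjusted p = 0.0512 to 0.142).

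Regulators of lipid synthesis had 3 higher and 7 lower members of 26 tested. Their called share of 38.5% was near the 40.9% of all tested genes. SREBF1, which encodes SREBP-1, the factor best known for the fatty acid genes, measured 352, 320 and 341 CPM in controls and 291, 245 and 270 CPM in EV-labelled libraries. It fell without overlap by 0.33 on the log2 scale (SE 0.07, edgeR adjusted p = 0.000515), opposite in direction to ACLY, FASN, SCD and ELOVL6. ACACA, at -0.17 and not called, had the same direction as SREBF1. SREBF2, at 247 ± 14.5 against 247 ± 9.85 CPM (adjusted p = 0.992), and SCAP, the escort of both factors, at 105 ± 6.20 against 109 ± 1.64 CPM (adjusted p = 0.508), did not pass. INSIG1, which holds SCAP back and is itself an SREBP target, rose from 59.1 ± 4.23 to 86.8 ± 3.99 CPM (0.56 ± 0.07, adjusted p = 2.49e-06). RNF145, a ubiquitin ligase of the same sterol circuit, rose by 0.58 ± 0.07 (adjusted p = 2.89e-06), and NFYB, a subunit of the CCAAT-binding factor NF-Y, by 0.28 ± 0.07 (adjusted p = 0.00336). The other NF-Y subunit genes, NFYA (-0.08 ± 0.06, adjusted p = 0.297) and NFYC (-0.04 ± 0.06, adjusted p = 0.625), were not called.

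MID1IP1, whose product promotes the activity of acetyl-CoA carboxylase, fell from 37.1 ± 0.744 to 27.1 ± 2.83 CPM (-0.45 ± 0.08, edgeR adjusted p = 0.000172). PRKAA2, which encodes a catalytic subunit of AMPK, a kinase that inhibits acetyl-CoA carboxylase, fell from 8.75 ± 0.954 to 4.72 ± 0.368 CPM (-0.89 ± 0.13, adjusted p = 1.98e-05). The other catalytic subunit gene, PRKAA1, was at 59.3 ± 2.16 against 56.7 ± 2.51 CPM and was not called (-0.07 ± 0.06, adjusted p = 0.435). MLXIPL, which encodes the glucose-responsive lipogenic factor ChREBP, was at 6.70 ± 0.835 against 7.40 ± 0.617 CPM (adjusted p = 0.375). Among sterol genes, on the other branch of the SREBP programme, 16 of 20 tested were higher, with a median of 0.42. That was 80%, against 20.2% of all tested genes called higher. IDI1, HSD17B7 and HMGCS1 had the lowest adjusted p of the sterol genes, at 1.04 ± 0.07, 0.75 ± 0.07 and 0.76 ± 0.08.

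Fatty acid synthesis consumes NADPH, and the 10 tested genes of NADPH supply split into 3 higher and 3 lower. The called share was 60%, against 40.9% of all tested genes. ME1, the cytosolic malic enzyme of the lipogenic pathway, was at 40.9, 44.3 and 47.4 CPM against 31.9, 31.3 and 31.8 CPM (-0.48 ± 0.07, edgeR adjusted p = 2.97e-05). H6PD (-0.31 ± 0.06, adjusted p = 0.000524) and ME3 (-0.65 ± 0.19, adjusted p = 0.0105) were lower too, the latter not without EV replicate 3 (adjusted p = 0.0699) or with DESeq2 (adjusted p = 0.0509). The isocitrate dehydrogenase genes IDH1 (0.46 ± 0.06, adjusted p = 1.18e-05) and IDH2 (0.30 ± 0.06, adjusted p = 0.000686) and the folate enzyme gene MTHFD1 (0.40 ± 0.08, adjusted p = 0.000386) were higher.

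Lists of genes that use, store, import or oxidise fatty acids had shares of called genes near the 40.9% of all tested genes, at 46.2% for glycerolipids and lipid droplets, 45.5% for uptake and binding and 35.7% for oxidation. Of 26 tested genes of glycerolipids and lipid droplets 7 were higher, 4 of them without EV replicate 2, and 5 lower. PLIN2, which coats lipid droplets, fell from 175 ± 17.2 to 106 ± 8.07 CPM (-0.72 ± 0.07, edgeR adjusted p = 2.96e-07), and GPAT3 and LPIN2, of triglyceride synthesis, fell by 0.30 and 0.32 on the log2 scale. AGPAT5 (0.48 ± 0.06), FITM2 (0.46 ± 0.07) and LPCAT1 (0.35 ± 0.07) rose. Of 11 tested uptake and binding genes 2 were higher, MFSD2A (0.72 ± 0.14) and DBI, the acyl-CoA binding protein gene (0.44 ± 0.06), and 3 lower. The lipoprotein receptor gene VLDLR had the largest difference among these, from 25.6 ± 0.769 to 11.8 ± 1.21 CPM (-1.11 ± 0.09, adjusted p = 2.31e-08), and SLC27A3 was at -0.69 ± 0.14.

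Fatty acid oxidation had 5 higher and 5 lower genes of 28 tested, with a median of -0.05. Its called share of 35.7% was near the 40.9% of all tested genes. Only 2 or 3 lower calls were left after removal of any single library other than EV replicate 1, 2 of them without EV replicate 2. ACADVL, which opens the oxidation of long chains, fell from 396 ± 18.6 to 276 ± 4.16 CPM (-0.52 ± 0.06, edgeR adjusted p = 8.39e-07), and ECI1 was at -0.33 ± 0.07. HADH (0.33 ± 0.06), ECI2 (0.39 ± 0.08) and ACADSB (0.33 ± 0.08) were higher. CPT1A, the entry gate of mitochondria that malonyl-CoA inhibits, was at 82.3 ± 4.53 against 73.0 ± 3.41 CPM (-0.17 ± 0.06, adjusted p = 0.0343). That call was lost in 7 of 14 other settings, among them the replicate block (adjusted p = 0.0554), no count filter (adjusted p = 0.0765), DESeq2 (adjusted p = 0.0618) and the removal of control replicate 1 or 2 or EV replicate 1 or 2 (adjusted p = 0.067 to 0.172).

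**Figure D4:**
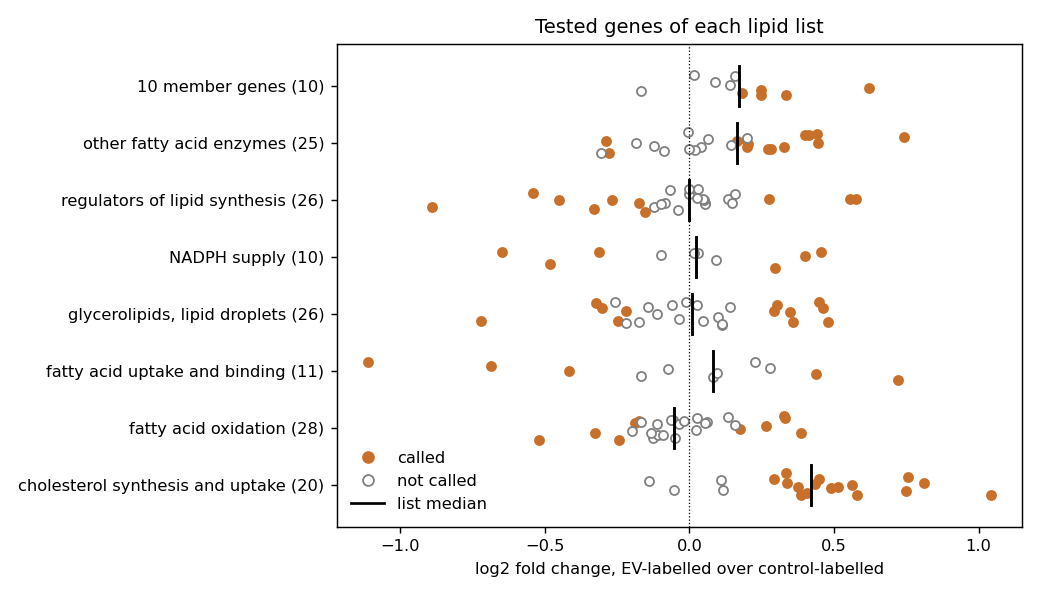
Log2 fold change (EV-labelled over control-labelled) of every tested gene of each lipid list, filled where called at an adjusted p under 0.05, with a bar at the list median and the number of tested genes in brackets. The medians are 0.17 for the 10 genes, 0.17 for the other fatty acid enzymes and 0.42 for the cholesterol genes, and lie between -0.05 and 0.08 for the other 5 lists.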

How the data were processed

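Poly(A) RNA of 6 libraries was measured. The authors deposited whole-number counts per gene and a table of their own log2 means, log2 fold changes, p-values and q-values. TopHat, RSEM and the hg19 build are named in the submitters' processing notes, without versions or roles. Rows without a gene name, 375 holding 0.099% to 0.134% of a library, were left out. Genes were tested with edgeR 4.0.16 (R 4.3.3; quasi-likelihood, TMM, filterByExpr, prior count 0.125, Benjamini-Hochberg over all 14670 tested genes). CPM used TMM factors, and each SE was derived from the log2 coefficient and its F statistic. The test was checked on simulated counts.

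Alternatives were other scalings and filters, DESeq2 1.42.0, limma-voom (limma 3.58.1), the replicate number as a block, and each library left out. Lengths came from GENCODE 29 on GRCh38, which held 97.0% of the table's identifiers. Members and lists were chosen with earlier results of these data known. Named are the 10 members, up to 3 called genes per list and direction (lowest adjusted p, mean CPM of 1 or more), and 12 fixed genes, of which 1 is not reported here. The labels name no separate cultures, so p-values reflect only how far these libraries differ, possibly for technical reasons. Floors cover counting error only.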

Additional observations from a re-analysis of the deposited data

How the results depend on the processing

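Over the 14 alternatives, 4756 to 6013 of all tested genes were called, against 6001. Of the 10 genes 5 were called higher, against 7 with median-ratio scaling or library totals alone, 6 with DESeq2 and 4 with upper-quartile scaling. Leaving out single libraries it ranged from 3 to 6, and the number called lower from 0 to 1; upper-quartile scaling gave 1 lower. With a library left out, the log2 fold change ranged from -0.25 to -0.10 for ACACA, 0.16 to 0.32 for FASN, 0.11 to 0.25 for SCD, 0.11 to 0.18 for FADS1 and 0.12 to 0.19 for ACSS2. With upper-quartile scaling ACACA was at -0.186 (called) and SCD at 0.163 (not called). FADS1 was called at 0.154 with median-ratio scaling, 0.153 with library totals and 0.154 with DESeq2, and ACSS2 at 0.17 and 0.169 with the first and second of these. The cause was not tested.

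The labels number replicates 1 to 3 in both groups, but same-numbered libraries did not deviate together (correlations of -0.052, -0.029 and -0.0509 across genes) and none correlated best with its own number, so the number was not taken as a pairing. With the replicate block 5743 genes were called, the same 5 of the 10 genes were higher, and ELOVL6 and SCD were at 0.63 and 0.19. Of 43 other named genes, 581 values under the alternatives kept their call or stayed uncalled, and 21 lost the call. No value changed sign where the gene was called, in the main or the other setting. Uncalled genes near 0, such as ACACB and FADS3, did change sign in some settings. The lists' counts ranged widest for lower oxidation genes (2 to 6, against 5) and higher glycerolipid genes (4 to 8, against 7). Depth was least for ELOVL6, with 160 to 321 counts, and its SE was the largest of the 10 genes.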
